A study of Homo sapiens with 15 samples.

Results

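The genes of the mitochondrial genome were followed through 15 bulk RNA-seq libraries of 143B cells, an established human osteosarcoma line. They were chosen by name alone: all genes of both count tables whose symbol starts with MT-, which gave 37 of the 62700 genes listed. They comprised 13 mRNAs, 2 rRNAs and 22 tRNAs. The libraries formed 5 groups of 3. OSCs were 143B cells grown as tumor spheres, and non-OSCs were the same cells grown attached, both labelled wild type. The shCtrl, shPDK1_1 and shPDK1_2 groups were 143B OSCs under tumor spheroid conditions, infected with a control lentivirus or with a lentivirus carrying either of the hairpins against PDK1, the kinase that inactivates pyruvate dehydrogenase. The sphere and attached cultures also differed in medium, with growth factors and B27 in the sphere medium and serum in the attached one, so attachment and medium cannot be told apart in that comparison. All groups came from 1 cell line, and whether the 3 libraries of a group came from separate cultures was not given in the sources used here, so p-values measure the spread between these libraries, which may be technical.

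Human mitochondrial DNA is a small circle that codes for core subunits of respiratory complexes I, III, IV and V, for the RNAs of the mitochondrial ribosome and for the tRNAs needed to translate its mRNAs. Each strand is transcribed into long precursors, and the tRNAs that lie between most of the mRNAs and rRNAs are cut out, which releases the flanking RNAs. Because genes of 1 strand share a precursor, differences between their steady levels arise largely after transcription starts, through early termination, processing and decay. All other subunits of the respiratory chain are coded in the nucleus.

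The measured genes lie in this order on the mitochondrial chromosome of GRCh38. The rRNAs MT-RNR1 (chrM:648-1601) and MT-RNR2 (chrM:1671-3229) come first. They are followed by MT-ND1 (chrM:3307-4262), MT-ND2 (chrM:4470-5511), MT-CO1 (chrM:5904-7445), MT-CO2 (chrM:7586-8269), MT-ATP8 (chrM:8366-8572), MT-ATP6 (chrM:8527-9207) and MT-CO3 (chrM:9207-9990). The second part of the circle holds MT-ND3 (chrM:10059-10404), MT-ND4L (chrM:10470-10766), MT-ND4 (chrM:10760-12137), MT-ND5 (chrM:12337-14148), MT-ND6 (chrM:14149-14673, minus strand) and MT-CYB (chrM:14747-15887). None of them has an intron.

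Reference sequences of the GRCh38 mitochondrial chromosome are shown for the features on which the counts of these genes turn. The first set shows where genes share bases, because a read that lies wholly within shared bases cannot be given to 1 gene. For MT-ATP8, MT-ND4L and MT-ND4, no stretch of 75 bases occurred in the annotated transcripts of another gene. MT-ATP8 and MT-ATP6 overlap by 46 bases at chrM:8527-8572, where the capitals mark the start codon of MT-ATP6 and the stop codon of MT-ATP8. MT-ND4L and MT-ND4 overlap by 7 bases, in capitals within chrM:10740-10786.
MT-ATP8 and MT-ATP6 overlap: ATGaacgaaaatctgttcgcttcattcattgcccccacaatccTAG
MT-ND4L and MT-ND4 overlap: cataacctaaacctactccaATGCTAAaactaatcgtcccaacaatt

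The next set shows a shortest tRNA of each strand, since none of the tRNAs received a count. They are MT-TS2 (serine, chrM:12207-12265, plus strand) and MT-TC (cysteine, chrM:5761-5826, minus strand), which has the same 66 bases in length as MT-TY.
MT-TS2: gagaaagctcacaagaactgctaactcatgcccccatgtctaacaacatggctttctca
MT-TC: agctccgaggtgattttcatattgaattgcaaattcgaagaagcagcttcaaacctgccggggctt

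The strands differ in base composition, which is seen in the first 60 bases of MT-ND6, the only mRNA read from the minus strand of the reference (chrM:14614-14673), and of its neighbor MT-ND5 (chrM:12337-12396, plus strand), with each G in capitals. The first holds 21 G and the second 2 G.
MT-ND6: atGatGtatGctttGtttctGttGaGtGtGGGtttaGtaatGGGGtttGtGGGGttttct
MT-ND5: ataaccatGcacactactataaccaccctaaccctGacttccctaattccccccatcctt
Over the whole gene, G made up 35.6% of MT-ND6, against 6.28% to 16.2% in the 12 mRNAs of the other strand. Whether the libraries kept strand was not given in the sources used here, so reads of MT-ND6 and of the RNA antisense to it cannot be told apart.

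The last set shows why reads of some members can be shared with the nucleus, which holds inserted copies of mitochondrial DNA. MT-CO1 and its nuclear copy MTCO1P12 on chromosome 1 are 98.7% identical over 1542 aligned bases, with 20 differing bases and a gap of 1 base. MT-ATP6 and its nuclear copy MTATP6P1 on the same chromosome are 98.5% identical over 681 bases, with 10 differing bases. The windows below lie at chrM:6207-6266 and chr1:631377-631436, and at chrM:8642-8701 and chr1:633811-633870, and the 3 bases that differ in each pair are in capitals.
MT-CO1: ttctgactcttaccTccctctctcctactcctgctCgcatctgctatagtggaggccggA
MTCO1P12: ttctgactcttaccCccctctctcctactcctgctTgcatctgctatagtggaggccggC
MT-ATP6: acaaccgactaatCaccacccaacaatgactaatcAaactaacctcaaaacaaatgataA
MTATP6P1: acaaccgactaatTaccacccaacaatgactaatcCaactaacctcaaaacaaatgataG

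The libraries held 7992499 to 11256536 counts each. The mitochondrial genes took 2.69 to 2.88% of all counts in non-OSCs, 2.94 to 3.15% in OSCs, 3.59 to 3.89% in shCtrl, 3.10 to 3.63% in shPDK1_1 and 3.65 to 3.82% in shPDK1_2. Levels are given in CPM, the count of a gene relative to the TMM-scaled total of its library, so each is a share of the counted RNA and not an amount per cell. In bulk RNA, fewer cells with a high level and less RNA per cell cannot be told apart. PDK1 was at 46.7, 44.7 and 44.4 CPM in shCtrl, 29.0, 27.8 and 27.3 CPM in shPDK1_1 and 18.3, 21.5 and 19.6 CPM in shPDK1_2, so the 3 groups did not overlap and stood in the order of their labels. It was at 45.4, 51.6 and 42.9 CPM in non-OSCs and 73.6, 69.9 and 67.5 CPM in OSCs. Of 8 genes of the osteoblast lineage, 5 were above 1 CPM in at least 1 group, among them COL1A1 (mean 417 ± 31.2 CPM in non-OSCs), while IBSP was at 0 counts in every library and SP7 at no more than 1. Of 11 genes of immune, vessel, epithelial and osteoclast cells, 6 passed 1 CPM in a group but only MMP9 passed 10 CPM, NKG7 was at 0, and PTPRC, CD3D and VWF had at most 4 counts in a library. The summed means of these 11 genes were 35.2 CPM in non-OSCs, 84.1 in OSCs, 59.6 in shCtrl, 43.8 in shPDK1_1 and 32.1 in shPDK1_2, and their part in the results was not tested.

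All 13 mRNAs and both rRNAs passed the filter on low counts in both tables and were tested. None of the 22 tRNAs had a count in any of the 15 libraries. These were MT-TD, MT-TF, MT-TG, MT-TH, MT-TI, MT-TK, MT-TL1, MT-TL2, MT-TM, MT-TR, MT-TS2, MT-TT, MT-TV and MT-TW on the plus strand, and MT-TA, MT-TC, MT-TE, MT-TN, MT-TP, MT-TQ, MT-TS1 and MT-TY on the minus strand. A count of 0 allows a level of up to 3 counts per library, which is 0.267 to 0.375 CPM, and this covers counting error only. The tRNA models are 59 to 75 bases long, whereas the shortest member with counts, MT-ATP8, has 207 bases. The counting program gives a read pair to a gene only where the pair lies within an annotated transcript, so the 0 describes these libraries and their counting and not the presence of tRNA in the cells.

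To set genes side by side, levels were divided by gene length (CPM per kb). MT-CO1 and MT-CO2, catalytic subunits of cytochrome c oxidase (complex IV), had the highest mRNA means in all 5 groups when the whole gene length was used. In non-OSCs, MT-CO2 stood at 4323 ± 99.8 and MT-CO1 at 4115 ± 122 CPM per kb (SD, n = 3), and the 2 overlapped. In OSCs the order was inverted, with MT-CO1 at 4993 ± 77.8 and MT-CO2 at 4031 ± 156 CPM per kb and no overlap. With an assumed mean fragment of 200 bases taken off each length, MT-CO1 (4725 CPM per kb) stood in non-OSCs below MT-CO2, MT-ATP6 and MT-CO3, and in OSCs it overlapped MT-CO2 (5733 and 5685). MT-CO3, the third complex IV subunit, was at 3713 ± 90.8 CPM per kb in non-OSCs and overlapped MT-ATP6, a subunit of the proton channel of ATP synthase (complex V), at 3694 ± 213. The mRNAs of complex I, the NADH dehydrogenase, spread widely within each group: in non-OSCs from 2333 ± 126 CPM per kb for MT-ND4 to 650.2 ± 28.7 for MT-ND5 and 326 ± 33.8 for MT-ND6. MT-CYB, the cytochrome b of complex III, was at 1223 ± 24.0 CPM per kb there and overlapped MT-ND3. MT-ND6, the only mRNA of the minus strand, was the lowest mRNA after MT-ATP8 in all 5 groups, and per length MT-CO1 exceeded it 12.6-fold in non-OSCs, 17.8-fold in OSCs and 13.5- to 14.1-fold in the 3 hairpin groups. MT-ATP8 had the lowest level, 70.2 ± 13.5 to 106 ± 27.6 CPM per kb over the group means, from 101 to 143 counts per library in OSCs to 150 to 261 in shCtrl. Its 207 bases leave few places where a whole fragment can lie, and its place depended on the length used as well: with 200 bases taken off, its means were 1816 to 2751 CPM per kb and overlapped those of MT-ND2 in all 5 groups.

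**Figure D1:**
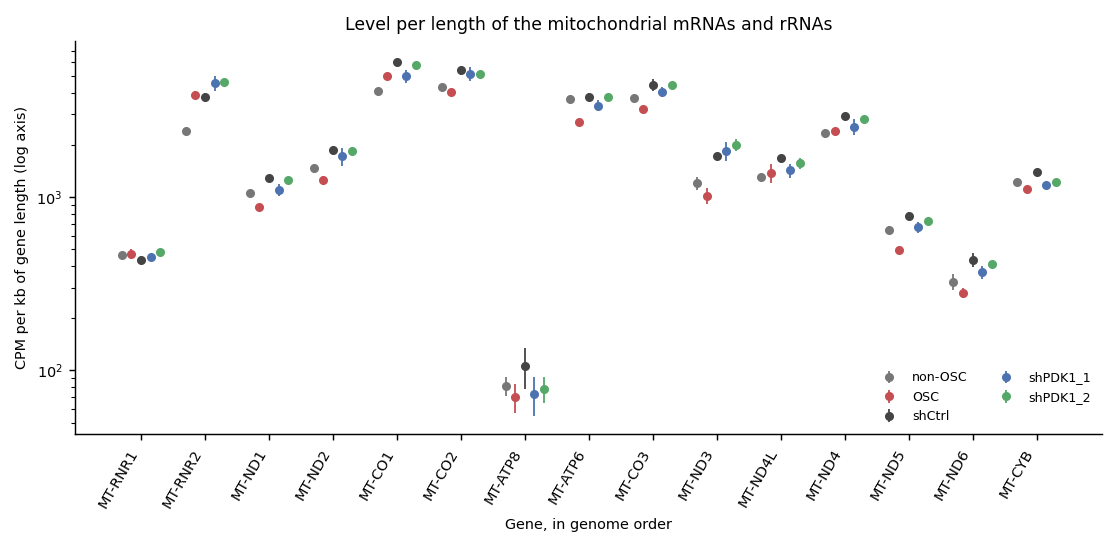
Level per length of the 13 mitochondrial mRNAs and 2 rRNAs (y axis, CPM per kb of gene length, log axis) in genome order (x axis) for the 5 groups. Points are means and bars the SD of 3 libraries. The means of MT-CO1 and MT-CO2 stand highest among mRNAs and MT-ATP8 lowest in every group at this length, and the 22 tRNAs, at 0 counts, cannot be drawn on this axis.

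The rRNAs stood at different levels as well. MT-RNR2, the RNA of the large mitochondrial ribosomal subunit, was at 2411 ± 113 CPM per kb in non-OSCs, while MT-RNR1, the RNA of the small subunit, was at 461 ± 8.85. A single count of MT-RNR1 went with 9.13, 8.07 and 8.47 counts of MT-RNR2 in the non-OSC libraries. Values between 13.3 and 17.3 were found in the libraries of the other 4 groups.

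**Figure D2:**
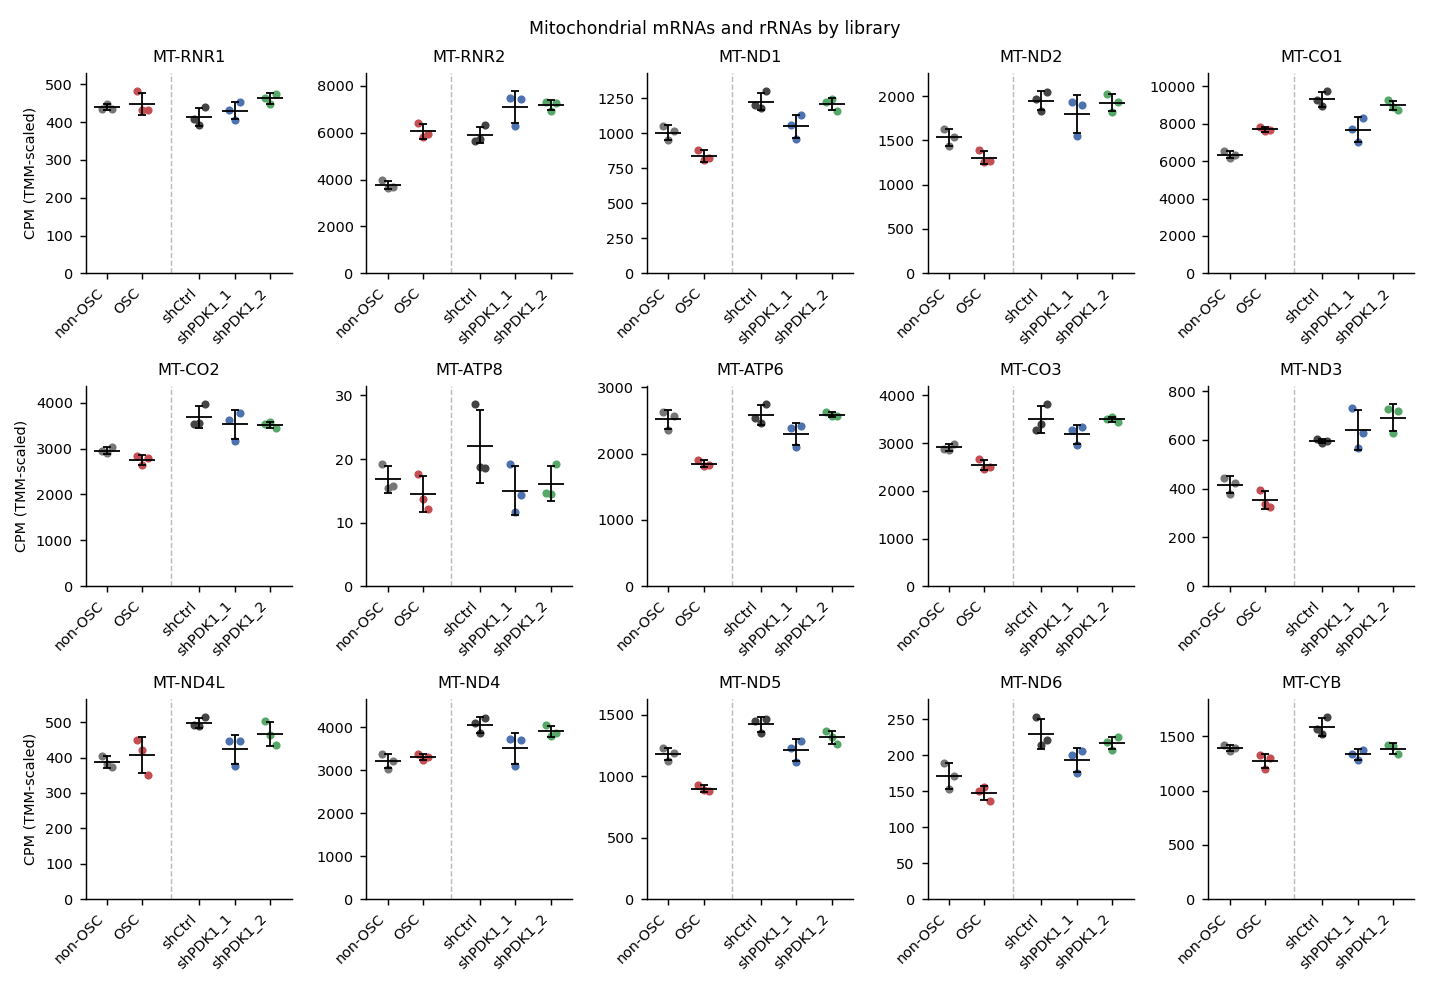
Level of each of the 15 measured genes (y axes, TMM-scaled CPM, from 0) in every library of the 5 groups (x axes). Points are libraries, horizontal lines group means and bars the SD (n = 3), and a dashed line parts the tables, which were scaled separately. MT-RNR2 and MT-CO1 were higher and MT-ATP6 and MT-ND5 lower in OSCs than in non-OSCs with no overlap, and MT-CO1 was lowest of all hairpin libraries in shPDK1_1 replicate 2.

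OSCs were compared with non-OSCs to find how sphere culture changes the levels of these genes. The rRNA of the large subunit rose, 1 mRNA rose and 9 mRNAs fell, so the mRNAs did not move together. The summed level of the 13 mRNAs was 24759, 23118 and 24265 CPM in non-OSCs and 24155, 22822 and 23203 CPM in OSCs, and these ranges overlapped, with a log2 ratio of means of -0.040. With the rRNAs added, the sum had a log2 ratio of 0.082, so the direction of the whole depended on the rRNAs. In all, 11 of the 15 measured members passed an adjusted p of 0.05, 2 higher and 9 lower, where 63.9% of all 14287 tested genes passed (32.4% higher and 31.5% lower). The share of members called, 73.3%, was thus near the share of all genes. Their median log2 fold change was -0.19, against -0.0053 over all tested genes, whose median absolute change was 0.44. All OSC libraries lay to 1 side of all non-OSC libraries for 9 members, and for 66.9% of all genes.

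MT-RNR2 changed most. Its level was 3958, 3623 and 3693 CPM in non-OSCs and 6399, 5797 and 5953 CPM in OSCs, so all 3 OSC libraries were higher (log2 fold change 0.69, SE 0.0380, adjusted p = 8.63e-13). MT-RNR1 was at 434, 449 and 436 CPM in non-OSCs and 481, 431 and 431 CPM in OSCs, and the groups overlapped (log2 fold change 0.026, SE 0.0467, adjusted p = 0.641; 95% interval -0.071 to 0.12). The rRNAs are neighbors on 1 precursor, with only MT-TV between them, and they changed unequally. Summed, the rRNAs gave 17.7, 17.6 and 17.0 counts per 100 mRNA counts in non-OSCs and 28.5, 27.3 and 27.5 in OSCs. Mitochondrial rRNAs have very short A tails, and how RNA was selected for the libraries was not given in the sources used here. Of 7 tested nuclear-coded RNAs that mostly lack a poly(A) tail, 5 were higher in OSCs, where 32.4% of all tested genes were. RN7SL2 was lower (-0.21). The 5 were sparse, with group means of at most 17.2 CPM. Among them, the histone H4C8 had 4 to 16 counts in non-OSCs and 35 to 42 in OSCs. RN7SK had 8 to 18 and 40 to 45. Both passed the filter on low counts through their OSC libraries, so a rise of these RNAs was favored by the filter. Summed over the 19 such RNAs listed, the means were 224 CPM in non-OSCs and 239 CPM in OSCs. H2BC5, a histone, had a log2 fold change of 1.79. RN7SL1, the signal recognition particle RNA, had one of 0.055 that did not pass (adjusted p = 0.683). The part of these RNAs in the rRNA result was not tested.

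Among complex IV mRNAs, MT-CO1 rose whereas its partners fell slightly. MT-CO1 was at 6542, 6166 and 6329.8 CPM in non-OSCs and 7829, 7593 and 7674 CPM in OSCs, without overlap (log2 fold change 0.28, SE 0.0296, adjusted p = 3.71e-08). MT-CO2 was at 2938, 2901 and 3033 CPM in non-OSCs and 2832, 2635 and 2805 CPM in OSCs, where every OSC library was lower but by little (log2 fold change -0.10, SE 0.0344, adjusted p = 0.0142). This call was lost without OSC replicate 2 (-0.066, adjusted p = 0.135), without non-OSC replicate 3 (adjusted p = 0.0556) and under scaling by library size alone (adjusted p = 0.0854). MT-CO3 ended at 87.4% of its non-OSC level (log2 fold change -0.19, SE 0.0352, adjusted p = 5.31e-05).

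The largest fall was in complex V. MT-ATP6 was at 2625, 2351 and 2572 CPM in non-OSCs and 1904, 1811 and 1825 CPM in OSCs, a clear separation, and fell to 73.4% (log2 fold change -0.45, SE 0.0393, adjusted p = 1.94e-09). MT-ATP8, which shares an mRNA with MT-ATP6 and 46 bases with it, was at 19.2, 15.4 and 15.8 CPM in non-OSCs and 17.6, 13.8 and 12.2 CPM in OSCs, with overlap (log2 fold change -0.22, SE 0.143, adjusted p = 0.194). Its counts were few and its 95% interval was -0.51 to 0.081, and without OSC replicate 1 it was called lower (-0.37, adjusted p = 0.0383). Set against MT-CO1 within the same library, MT-ATP6 had 40.1, 38.1 and 40.6 counts per 100 in non-OSCs and 24.3, 23.9 and 23.8 in OSCs. This ratio restates the opposite changes of both genes, which were known when the pair was chosen, and needs no scaling between libraries.

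Of the 7 complex I mRNAs, 5 fell and none rose. MT-ND5 was at 1225, 1122 and 1187 CPM in non-OSCs and 927, 884 and 878 CPM in OSCs, with no overlap (log2 fold change -0.39, SE 0.0399, adjusted p = 1.78e-08). MT-ND1, next to MT-RNR2 in the same precursor, went the other way from that rRNA, to 83.3% of non-OSCs (log2 fold change -0.26, SE 0.0436, adjusted p = 1.96e-05). MT-ND2 (-0.23), MT-ND3 (-0.24) and MT-ND6 (-0.22) fell on the log2 scale by similar amounts, though the libraries overlapped for MT-ND3 and MT-ND6. Without OSC replicate 3 the call of MT-ND6 was lost (adjusted p = 0.0714). MT-ND4L and MT-ND4, which share an mRNA, did not pass, with log2 fold changes of 0.076 (95% interval -0.057 to 0.21) and 0.042 (95% interval -0.034 to 0.12). Without OSC replicate 3, MT-ND4L was called higher (0.18, adjusted p = 0.00592), and without non-OSC replicate 1, MT-ND4 was (0.077, adjusted p = 0.0438). In complex III, MT-CYB was 1369 to 1424 CPM in non-OSCs and 1201 to 1324 CPM in OSCs (log2 fold change -0.13, SE 0.0391, adjusted p = 0.00593), and this call was lost without OSC replicate 2 (adjusted p = 0.0834).

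Counted as shares of the 13 mRNAs, MT-CO1 took 26.4% ± 0.295 in non-OSCs and 32.9% ± 0.450 in OSCs (SD, n = 3). MT-ATP6 took 10.5% ± 0.249 and 7.90% ± 0.0367, and MT-ND5 4.90% ± 0.0471 and 3.83% ± 0.0440. In all, the shares of 2 mRNAs (MT-CO1 and MT-ND4) were higher in each OSC library than in any non-OSC library, those of 7 were lower and those of 4 overlapped. The minus-strand mRNA MT-ND6 kept shares of 0.663 to 0.762% and 0.586 to 0.680%, which overlapped. Across the 12 plus-strand mRNAs, the log2 fold change did not follow the order along the strand (Pearson r = -0.049, Spearman rho = 0.084), a description over 12 genes of the same libraries.

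**Figure D3:**
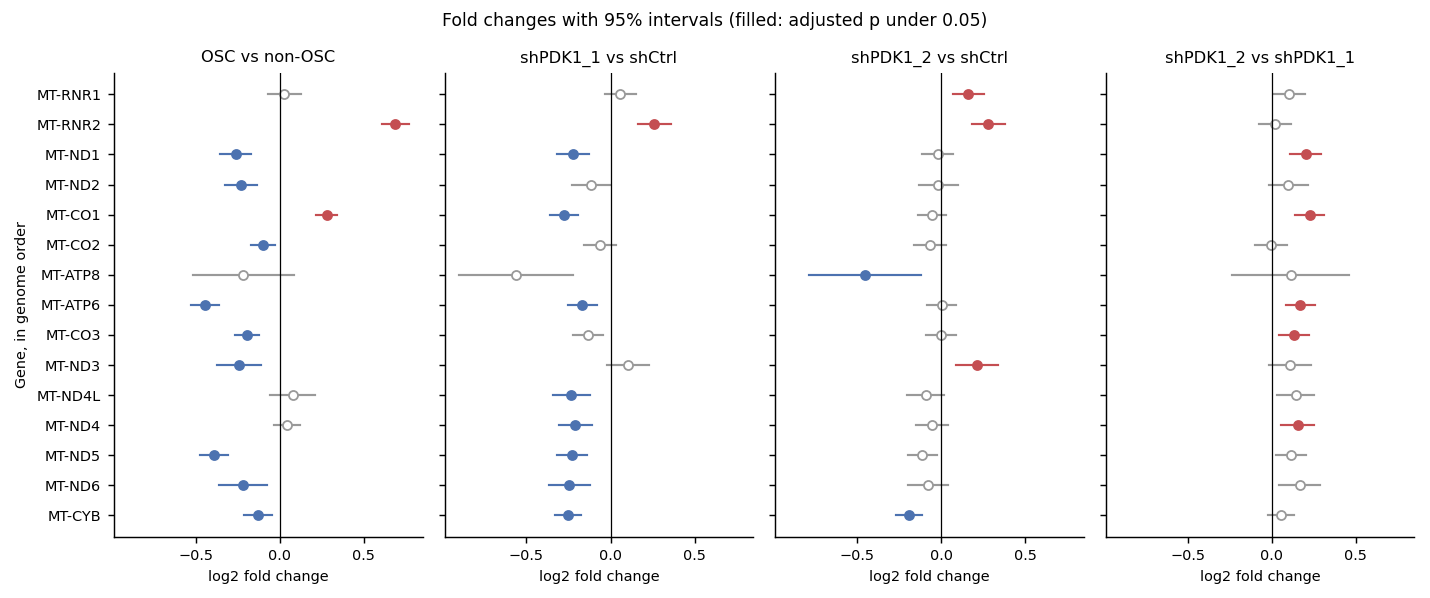
Log2 fold change (x axes) of each measured gene in genome order (y axis) for 4 comparisons. Lines are 95% intervals from the fit across all genes, filled points have an adjusted p under 0.05 (red higher, blue lower) and open grey points do not. MT-RNR2 is to the right against non-OSCs and against shCtrl, while the mRNAs lie to both sides in OSCs against non-OSCs and mostly to the left in shPDK1_1 against shCtrl.

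The first hairpin was compared with shCtrl to find how the mitochondrial genes differ in OSCs that carry it. In this comparison alone, lower PDK1 and other effects of the hairpin or its cultures cannot be told apart. Most mRNAs fell together by a small amount while MT-RNR2 rose. Of the 15 measured members, 9 passed, where 3.06% of all 14574 tested genes did (1.62% higher and 1.44% lower). MT-RNR2 was the 1 that rose and 8 mRNAs fell. The median log2 fold change of the members was -0.21, against 0.0024 over all genes, whose median absolute change was 0.0996. Complete separation of the libraries was seen for 8 members, all mRNAs, and for 19.3% of all genes.

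MT-CO1 was at 9275, 8934 and 9729 CPM in shCtrl and 7705, 7004 and 8328 CPM in shPDK1_1, all 3 lower (log2 fold change -0.28, SE 0.0412, adjusted p = 1.35e-04). MT-CYB was at 1566, 1518 and 1677 CPM in shCtrl and 1342, 1282 and 1376 CPM in shPDK1_1, again without overlap (log2 fold change -0.25, SE 0.0377, adjusted p = 1.57e-04). MT-ND6, of the other strand, was at 253, 214 and 220.3 CPM in shCtrl and 199.5, 175 and 205 CPM in shPDK1_1 and fell by a like amount (log2 fold change -0.25, SE 0.0595, adjusted p = 0.0177). The other mRNAs that fell were MT-ND4L (-0.23), MT-ND5 (-0.23), MT-ND1 (-0.22), MT-ND4 (-0.21) and MT-ATP6 (-0.17), on the log2 scale. Those that did not pass were MT-ND2 (-0.12), MT-CO2 (-0.065), MT-CO3 (-0.13), MT-ND3 (0.11) and MT-ATP8 (-0.56, adjusted p = 0.0635). MT-ATP8 rested on 111 to 161 counts per library, and MT-ND3 was the only mRNA above its control mean.

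MT-RNR2 was at 5659, 5736 and 6311 CPM in shCtrl and 7494, 6289 and 7443 CPM in shPDK1_1, where replicate 2 lay within the range of the controls (log2 fold change 0.26, SE 0.0466, adjusted p = 0.00126). MT-RNR1 was at 409, 394 and 439 and 432, 406 and 452 CPM, with overlap (log2 fold change 0.057, SE 0.0448, adjusted p = 0.627). Per 100 mRNA counts, the rRNAs had 20.04, 20.8 and 20.9 counts in shCtrl and 28.6, 27.5 and 27.6 in shPDK1_1, so by this ratio replicate 2 stood with its group. Of the 7 RNAs that mostly lack a poly(A) tail, 2 rose, where 1.62% of all tested genes did. These were RN7SL1 and RN7SL2 (0.46 and 0.45 on the log2 scale), and DESeq2 called neither. Their part in the rRNA result was not tested. The summed mRNA level was 30286, 29417 and 32296 CPM in shCtrl and 27685, 24355 and 28556 CPM in shPDK1_1. Without shPDK1_1 replicate 2, its log2 ratio of group means went from -0.19 to -0.13, a move of over 1.5 times. The calls of MT-ND6 (adjusted p = 0.079), MT-ATP6 (0.0817) and MT-ND4L (0.0545) were lost without that library. Without shCtrl replicate 3, those of MT-ND4 (adjusted p = 0.082), MT-ATP6 (0.178) and MT-ND4L (0.0857) were lost, and DESeq2 called none of these 3 either. Without shCtrl replicate 1, those of MT-ND6 (adjusted p = 0.209) and MT-ND4 (0.0571) were.

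The second hairpin, with the lower PDK1 level, was compared with the same shCtrl libraries. Both rRNAs rose, and 10 of the 13 mRNAs did not pass. Of the 15 measured members, 5 passed, 3 higher and 2 lower, where 26.2% of all tested genes did (12.0% higher and 14.2% lower), so the share of members called, 33.3%, was near that of all genes. Their median log2 fold change was -0.053, against 0.0083 over all genes, whose median absolute change was 0.174. Complete separation was seen for 4 members and for 39.5% of all genes.

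MT-RNR2 was at 7323, 6923 and 7273 CPM in shPDK1_2, above each shCtrl library (log2 fold change 0.28, SE 0.0466, adjusted p = 4.34e-05). MT-RNR1 was at 465, 448 and 475 CPM, also above each control (log2 fold change 0.16, SE 0.0445, adjusted p = 0.00818), and this call was lost without shCtrl replicate 2 (adjusted p = 0.0813) or shPDK1_2 replicate 3 (adjusted p = 0.0506). The rRNA counts per 100 mRNA counts were 25.6, 25.0 and 26.6, all above the controls and below shPDK1_1. Of the 7 RNAs that mostly lack a poly(A) tail, 1 (RN7SL1, 0.32) rose and 3 histones fell with this hairpin, of which DESeq2 called 2 in all. Among all tested genes, 12.0% rose and 14.2% fell.

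Among mRNAs, MT-ND3 was at 605, 586 and 594 CPM in shCtrl and 725, 627 and 719.97 CPM in shPDK1_2 and rose without overlap (log2 fold change 0.22, SE 0.0603, adjusted p = 0.00893). This call was lost under DESeq2 (adjusted p = 0.133) and without shPDK1_2 replicate 1 (adjusted p = 0.0616) or 3 (adjusted p = 0.0558). MT-CYB was at 1421, 1408 and 1333 CPM, below every control library (log2 fold change -0.19, SE 0.0376, adjusted p = 3.05e-04). MT-ATP8 was at 28.6, 18.8 and 18.6 CPM in shCtrl and 14.6, 14.6 and 19.3 CPM in shPDK1_2 and overlapped (log2 fold change -0.45, SE 0.162, adjusted p = 0.0406). The call rested on shCtrl replicate 1, without which it was -0.22 (adjusted p = 0.395). It was lost as well without shPDK1_2 replicate 1 (adjusted p = 0.146) or 2 (adjusted p = 0.137), without shPDK1_1 replicate 3, which only adds to the estimate of the spread (adjusted p = 0.0517), and under DESeq2 (adjusted p = 0.0671). Of the 3 complex IV mRNAs, 0 passed in the edgeR quasi-likelihood test, 0 had an unadjusted p under 0.05 and 0 passed under DESeq2. Their log2 fold changes were -0.053 for MT-CO1 (95% interval -0.14 to 0.032), -0.067 for MT-CO2 (-0.16 to 0.027) and 0.00029 for MT-CO3 (-0.089 to 0.089).

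The hairpin groups were compared with each other in the same fit, since both share the shCtrl libraries. The difference was tested directly, and 5 mRNAs were higher in shPDK1_2 than in shPDK1_1, where 16.3% of all genes passed (6.50% higher and 9.78% lower). Complete separation was seen for 6 members, these 5 and MT-ND6 (0.17, adjusted p = 0.0553), and for 30.7% of all genes. MT-CO1 was at 7705, 7004 and 8328 CPM in shPDK1_1 and 9264, 8908 and 8759 CPM in shPDK1_2, without overlap (log2 fold change 0.23, SE 0.0412, adjusted p = 2.73e-04). MT-ND1 (0.20), MT-ATP6 (0.17), MT-ND4 (0.15) and MT-CO3 (0.14) were the others, on the log2 scale. No member passed as lower in shPDK1_2. The median of the 15 was 0.12, against 0.0046 over all genes, whose median absolute change was 0.143. The rRNAs did not pass, with log2 fold changes of 0.020 for MT-RNR2 (95% interval -0.076 to 0.12, adjusted p = 0.831) and 0.10 for MT-RNR1 (95% interval 0.013 to 0.20, adjusted p = 0.115). MT-CO3 lost its call without any 1 of shPDK1_1 replicate 2 (adjusted p = 0.167) or shPDK1_2 replicate 1, 2 or 3 (adjusted p = 0.0791, 0.0827 and 0.0557), and MT-ND4 without shPDK1_1 replicate 2 (log2 fold change 0.070, adjusted p = 0.162) or shPDK1_2 replicate 1 or 3 (adjusted p = 0.132 and 0.0525). DESeq2 called neither of them.

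**Figure D4:**
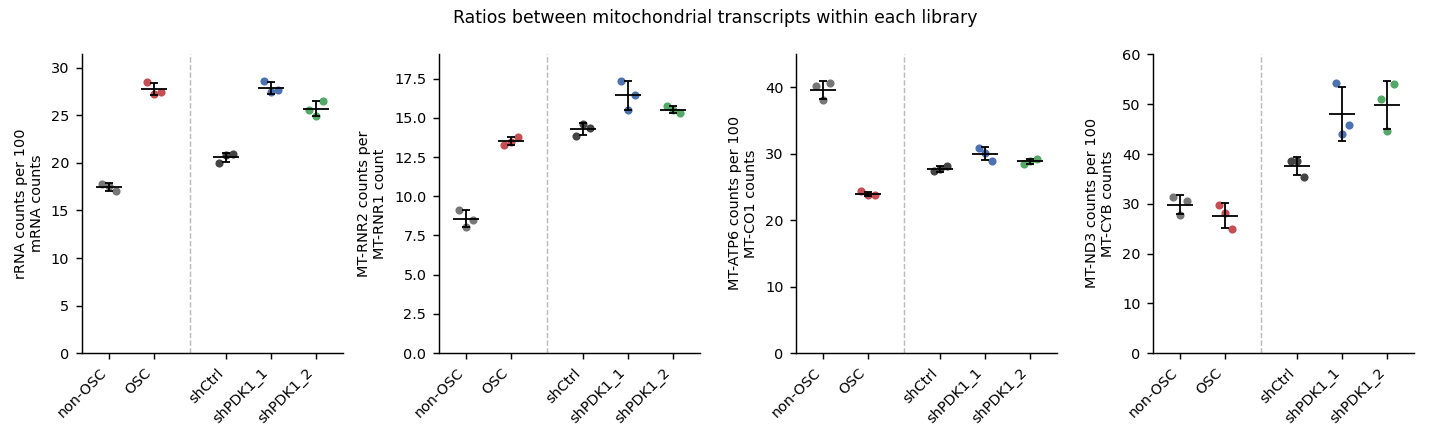
Ratios between counts of mitochondrial genes within a library (y axes, from 0) for the 5 groups (x axes). Points are libraries, horizontal lines means and bars the SD (n = 3). The rRNA counts per 100 mRNA counts separate OSCs (27.3 to 28.5) from non-OSCs (17.0 to 17.7) and both hairpin groups (25.0 to 28.6) from shCtrl (20.04 to 20.9).

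Nuclear copies could take or give reads, so they were read in the same tables. Among 404 listed pseudogene copies, MTATP6P1 and MTCO1P12 were the only ones tested in both tables, and all copies together held 0.781% of the mitochondrial counts in the table of OSCs and non-OSCs and 0.717% in the hairpin table. MTCO1P12 was at 59.6, 56.0 and 49.4 CPM in non-OSCs and 80.6, 84.7 and 69.6 CPM in OSCs, so it was higher in OSCs (log2 fold change 0.51, SE 0.0830, adjusted p = 1.55e-05), as MT-CO1 was. MTATP6P1 was at 177, 172 and 188 CPM in non-OSCs and 138, 146 and 127 CPM in OSCs and was lower (log2 fold change -0.38, SE 0.0588, adjusted p = 7.28e-06), as MT-ATP6 was. In shPDK1_1 both copies fell against shCtrl (-0.49 and -0.21), and in shPDK1_2 MTCO1P12 fell (-0.31) whereas MTATP6P1 did not pass (-0.017). The copies that passed had the direction of the gene they resemble in each case, though MT-CO1 itself did not pass in shPDK1_2 (-0.053). Reads that match a copy and its gene are shared between them, so their values are not independent. Of all stretches of 75 bases, 36.7% of MT-CO1, 34.4% of MT-ND2 and 28.0% of MT-ATP6 also occurred in the annotated transcripts of other genes, so that reads from there could be counted for either, against 0 for MT-ATP8, MT-ND3, MT-ND4L, MT-ND4, MT-CYB and MT-RNR2. MT-RNR1 shared 9.89% of its stretches with a gene outside the 404 listed copies, and counts of that gene were not added. Counts of a copy were added to MT-CO1, MT-ATP6, MT-ND1, MT-ND2, MT-CO2 and MT-CO3 only. All 15 members then kept their direction and their side of the threshold in each of the 4 comparisons. The other members received no counts and the copies held few, so this addition could move little and says little about shared reads.

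Nuclear genes of the same pathway were read from the same fits. In OSCs, 63 of 75 nuclear subunits of complexes I, III, IV and V were lower, where 31.5% of all tested genes were, and 1, the ATP synthase inhibitor ATP5IF1 (0.27), was higher, with a median log2 fold change of -0.46. The 13 mitochondrial mRNAs had a median of -0.22. The falls were 29 of 37 in complex I (NDUFA3, -1.20, and NDUFS7, -0.87), 8 of 9 in complex III (CYC1, cytochrome c1, -0.96, and UQCR10, -0.84), 10 of 11 in complex IV (COX8A, -0.73, and COX7C, -0.73) and 16 of 18 in complex V (ATP5MC1, a ring subunit, -1.26, and ATP5PB, -0.83), on the log2 scale. None of the 11 nuclear complex IV genes rose, while the mitochondrial MT-CO1 did. With shPDK1_1 none of the 75 passed in the edgeR quasi-likelihood test or under DESeq2, where 3.06% of all tested genes passed in the edgeR test. An unadjusted edgeR p under 0.05 was found for 14 of the 75, and for 2107 of all 14574 tested genes. The counts for the nuclear subunits were thus near those of all genes. Their median was 0.043, and 8 of the 13 mitochondrial mRNAs fell. With shPDK1_2, 28 of the 75 were higher (23 under DESeq2), where 12.0% of all tested genes were, and none lower (COX6B1, 0.31; ATP5MC2, 0.36; UQCR10, 0.29; NDUFA5, 0.27), with a median of 0.12, whereas 1 of the 13 mitochondrial mRNAs was higher and 2 were lower. Whether nuclear and mitochondrial subunits differed as groups was not tested.

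**Figure D5:**
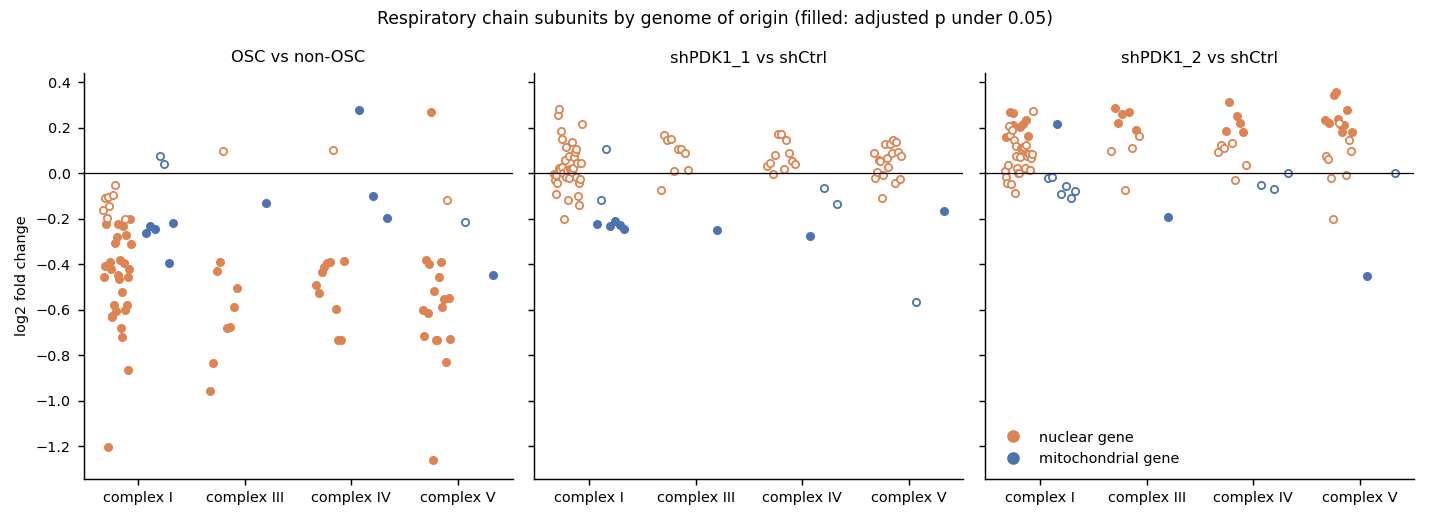
Log2 fold change (y axis) of the subunits of respiratory complexes I, III, IV and V (x axes), 1 point per gene, for OSCs against non-OSCs and for each hairpin against shCtrl. Orange points are the 75 nuclear genes and blue points the 13 mitochondrial genes, and filled points have an adjusted p under 0.05. Nuclear genes lie mostly below 0 in OSCs (63 of 75 fell), around 0 with shPDK1_1 and above 0 with shPDK1_2 (28 of 75 rose).

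Of 20 genes that transcribe and copy mitochondrial DNA, 14 were lower in OSCs, where 31.5% of all tested genes were, and none higher, with a median log2 fold change of -0.57. Those with the largest falls were MRPL12 (-1.23), a ribosomal protein that also binds the mitochondrial RNA polymerase, and MTERF3 (-0.94), a member of the mitochondrial termination factor family. TFAM, which packages mitochondrial DNA and starts its transcription, had -0.94, SE 0.0683, adjusted p = 8.54e-11, and POLRMT, the polymerase itself, -0.33, SE 0.0659, adjusted p = 1.58e-04, as log2 fold changes; both were picked after their values were seen. Of 36 genes of mitochondrial RNA processing and decay, 27 were lower and none higher, led by the mitochondrial RNA-binding protein FASTKD3 (-1.65) and SLIRP (-1.33), which stabilizes mitochondrial mRNAs with LRPPRC. Of 11 regulators of mitochondrial biogenesis, 3 were higher and 2 lower, shares below the 32.4% and 31.5% of all tested genes. The higher ones included the deacetylase SIRT1 (0.49) and the transcription factor TFEB (0.66). The lower ones were the coactivators PPARGC1B (-1.71) and PPRC1 (-0.93). With shPDK1_1 none of the 20, 36 or 11 genes passed in the edgeR test or under DESeq2. Only 3.06% of all tested genes passed in that edgeR test, so lists of this size would hold few calls or none. An unadjusted edgeR p under 0.05 was found for 0, 2 and 3 of them, and for 2107 of all 14574 tested genes. With shPDK1_2, 3 of the 20 were higher (2 under DESeq2), a share near the 12.0% of all tested genes, among them MTERF3 (0.28) and MRPL12 (0.26), and 9 of the 36 were higher, led by FASTKD3 (0.56) and HSD17B10 (0.51), a subunit of the enzyme that cuts tRNA 5' ends, with none lower in either list. Of the 11 regulators, the mitochondrial deacetylase SIRT3 was higher (0.31) and SIRT1 (-0.28) and YY1 (-0.15) were lower, of which DESeq2 called 1. These counts were near the shares of all tested genes, 12.0% higher and 14.2% lower. Between the hairpins, where 6.50% of all tested genes were higher in shPDK1_2, 1 of the 20 and 6 of the 36 were higher, MRPL12 (0.25) and HSD17B10 (0.43) among them, and 12 of the 75 nuclear subunits were, with none lower.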

How the data were processed

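RNA-seq of 15 libraries of the 143B line was read from 2 tables of genes, 1 with OSCs and non-OSCs and 1 with the 3 hairpin groups. The values are expected counts that, per the labels and the study's methods, the authors made by trimming with Trimmomatic 0.39, checking with FastQC 0.12.1, aligning with STAR 2.7.11a and estimating with RSEM 1.3.3 on GRCh38.p14. Of the deposited values, 6.85% and 6.92% were not whole in the first and the second table, and all were rounded. Total RNA went into the NEBNext Ultra RNA kit, and strand, RNA selection and fragment length are not given in the sources used here. RSEM shares reads that match several genes among them, so members with near-identical copies are uncertain.

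Each table was fitted alone with edgeR 4.0.16 (R 4.3.3): filterByExpr, TMM scaling and the quasi-likelihood test with Benjamini-Hochberg adjustment over all tested genes (threshold 0.05). Every adjusted p in the text comes from that fit unless another setting is named. The hairpin fit held all 9 libraries, and both hairpins share shCtrl. The fit was tested on simulated data. Alternatives were DESeq2 1.42.0, other scalings and filters, a replicate block and each library left out, and the addition of nuclear copies was chosen after seeing the data. Columns were matched to samples by name, with those named S2D read as the attached and S3D as the sphere culture, and no column of values was left over. The total per library of 7992499 to 11256536 counts sets the precision, and the BCV was 0.0549 and 0.0482. Coordinates and sequences are those of the GRCh38 reference with GENCODE 44. From the nuclear lists, genes were named by the 2 largest called changes per direction and list, at a level of at least 10 CPM. The members and gene lists were chosen with earlier results of these data known.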

Additional observations from a re-analysis of the deposited data

Results flagged for a closer look

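The 2 hairpins differed from each other by a direct test for 5 mitochondrial mRNAs, each higher in shPDK1_2 than in shPDK1_1. The log2 difference was 0.23 for MT-CO1, 0.20 for MT-ND1, 0.17 for MT-ATP6, 0.15 for MT-ND4 and 0.14 for MT-CO3. In shPDK1_1 against shCtrl these mRNAs had log2 fold changes of -0.28, -0.22, -0.17, -0.21 and -0.13, and in shPDK1_2 against the same controls of -0.053, -0.021, 0.0025, -0.055 and 0.00029, in the same order. All 3 shPDK1_2 libraries were above all 3 shPDK1_1 libraries for each of them. MT-ND1, MT-CO1 and MT-ATP6 kept their calls without any 1 library and under each other setting, whereas MT-ND4 and MT-CO3 lost theirs under DESeq2 (adjusted p = 0.202 and 0.206). Groups of 3 libraries were too small to be screened for single libraries far from the others.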

How the results depend on the processing

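Over 960 combinations of a member, a comparison and another setting, 881 kept their side of the threshold, 35 lost the call and 44 gained one. The sign turned in 28 of the 881, none of them called, and in no called value. The number of members called in shPDK1_2 against shCtrl was 3 under DESeq2, against 5. Between the hairpins it was 3 under DESeq2, 10 without a filter on low counts, 8 where each library had to hold 10 counts or more, and 10 with the replicate block, against 5. The log2 ratio of summed mitochondrial RNA in OSCs against non-OSCs was 0.082 with the rRNAs added, against -0.040, that of shPDK1_1 against shCtrl was -0.11, against -0.19, and that of shPDK1_2 against shCtrl was 0.014, against -0.045. Less an assumed fragment of 200 bases, MT-CO1 exceeded MT-ND6 per length 9.003-fold in non-OSCs, 12.7-fold in OSCs, 9.87-fold in shCtrl, 9.66-fold in shPDK1_1 and 10.1-fold in shPDK1_2. Where a single library was left out, members called ranged from 9 to 12 in OSCs against non-OSCs, from 6 (without shCtrl replicate 3) to 10 in shPDK1_1 and from 3 (without shPDK1_2 replicate 3) to 6 in shPDK1_2 against shCtrl, and from 3 (without shPDK1_1 replicate 2 or shPDK1_2 replicate 1) to 8 (without shPDK1_1 replicate 3) between the hairpins. All genes called in shPDK1_1 against shCtrl ranged from 245 (without shPDK1_1 replicate 3) to 508, against 446, and was 270 without shCtrl replicate 1 and 282 without shCtrl replicate 2. Without shPDK1_1 replicate 2, the summed mRNA log2 ratio of that comparison was -0.13, against -0.19. In the other comparisons, the summed mRNA ratio ranged, with a library left out, from -0.067 to -0.018 for OSCs, from -0.075 to -0.0066 for shPDK1_2 and from 0.080 to 0.19 between the hairpins. The cause of these changes was not tested.

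Libraries of the same replicate number did not deviate together, with correlations of -0.0093 to 0.073 in the table of OSCs and non-OSCs and of -0.054 to 0.095 in the hairpin table, so the numbers were not used as pairs. With the replicate block, 11, 11, 6 and 10 members were called in OSCs against non-OSCs, shPDK1_1 against shCtrl, shPDK1_2 against shCtrl and between the hairpins. Low counts limited MT-ATP8, with at most 261 in a library.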
